A study of Xenopus laevis with 6 samples.

Results

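The genes described here mark the precursors of the heart, the blood, the myeloid cells and the blood vessels in Xenopus laevis embryos at stage 23, an early tailbud stage. They were taken from a list of 48 gene symbols, and a feature of the count tables belonged to the list when its name, without the final .L or .S, equalled one of these symbols. X. laevis is allotetraploid, and .L and .S name its homeologs, the related copies of a gene that lie on long and short chromosomes. The list matched 81 of 44958 features, from 42 genes. Heart genes gave 18 features, blood genes 23, myeloid genes 8 and endothelial genes 32. No feature carried the symbol hand1, isl3, klf1, hba3, hbe1 or sox17.

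RNA-seq was carried out on 3 pools of embryos injected with neil2 MO and 3 pools injected with control MO. A Morpholino (MO) is an antisense oligonucleotide with a synthetic backbone, and Neil2 is a DNA glycosylase of base excision repair that removes oxidized bases. In both groups each embryo received 40 ng of MO into the animal pole region at the 1-cell stage, and 6 whole embryos were pooled per library. The embryos came from in vitro fertilization of purchased frogs and carried no other stated alteration, and the labels do not state whether pools with the same replicate number came from the same clutch. The injected oligonucleotides are shown because they are the sole stated difference between the groups. They are written 5′ to 3′, and capitals mark the complement of a start codon, which stands at the 3′ end of neil2 MO and is absent from control MO.

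neil2 MO: gtctgactgtgggaccttccggCAT

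Control MO: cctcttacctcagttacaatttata

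In the Xenopus embryo the heart forms from paired fields of anterior mesoderm that fuse at the ventral midline. Primitive blood arises in the ventral blood islands, the first myeloid cells in their anterior part, and endothelial precursors beside them and in the lateral plate. Blood and endothelial precursors share an early program, in which the ETS factor Etv2 and the bHLH factor Tal1 act with Lmo2 and Gata2, and the endothelial branch then makes receptors for VEGF and the angiopoietins.

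Libraries held between 18173652 and 24034094 counted reads in neil2 MO embryos, against 11534725 to 20655392 in control MO embryos. A count of 3, used here as the floor, was worth 0.125 to 0.260 CPM (counts scaled to a library total of 1000000). The first principal component (40.0% of variance) set both replicate 3 libraries apart from the rest, and the second (24.6%) separated the injected MOs. The feature neil2.L had 5, 4 and 15 raw counts in neil2 MO embryos and 3, 4 and 3 in control MO embryos, and such counts do not measure a block of translation. In whole embryos fewer cells of a type and less RNA per cell cannot be told apart.

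The endothelial transcripts etv2, kdr and egfl7 were lower in neil2 MO embryos in every same-numbered pair of libraries, in both homeologs, and the blood transcripts tal1.L, tal1.S and lmo2.L likewise. None of these passed the DESeq2 test without pairing, and 6 features of the list passed it with pairing by replicate number. etv2 encodes a transcription factor of endothelial precursors, kdr a VEGF receptor and egfl7 a secreted endothelial factor. A mean normalized count of 10 or more was reached by 22 of the 32 endothelial features, and their median log2 fold change (neil2 MO over control MO) was -0.48, with 18 of the 22 negative. The median was -0.25 for 13 blood features, -0.03 for 7 myeloid features and -0.05 for 13 heart features. Of these, 10 blood, 4 myeloid and 9 heart features were negative. Over all 23651 features at that level it was 0.01, and 48.3% were negative. The endothelial median was -0.20 without control MO replicate 1 and -0.32 without neil2 MO replicate 2, and it was -0.52 without both replicate 3 libraries. The blood median was -0.14 without control MO replicate 1. In the 3 same-numbered pairs of libraries the endothelial median difference was -0.52, -0.43 and -0.29, and 15 of the 22 features were lower in every pair. So were 7 of the 13 blood features, lmo2.S among them, 4 of the 13 heart features and 0 of the 7 myeloid features. Among all 23651 features at that level 5048 were lower in every pair. Higher in every pair were 3 endothelial, 1 blood (gata2.L), 3 heart and 1 myeloid features, against 5569 over all features.

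No member was called raised or lowered by DESeq2 at the thresholds used (adjusted p-value below 0.1, log2 fold change beyond 0.5 in either direction). All 55 members with a mean normalized count of 10 or more were tested, and over all features 1.15% were called raised and 1.09% lowered. An unadjusted p-value below 0.05 was reached by 10 members, all lower in neil2 MO embryos, of which 8 were endothelial. Over all features the share was 9.68% for both directions together, with 1124 lower and 1200 higher of 24016 tested features. edgeR called 0 members, against 0.592% of features, with 10 at an unadjusted p-value below 0.05, where the share over all features was 10.3%.

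When replicate number was added to the DESeq2 model as a block, 6 of 50 tested members were called lowered and 0 raised, where 2.76% of all features were lowered and 3.17% raised. The 6 were kdr.L, kdr.S, etv2.L, etv2.S, egfl7.S and lmo2.L, that is 5 endothelial features and 1 blood feature. edgeR with the same block called 10 members lowered and 0 raised, against 5.27% and 4.11% of all features. These 10 comprised the same 6 together with egfl7.L, erg.S, tie1.L and tal1.L. With the block kept and a same-numbered pair left out, DESeq2 called 0 members lowered without pair 1, 0 without pair 2 and 2 (etv2.L and kdr.S) without pair 3. Over all features the lowered share in these fits was 0.542%, 1.15% and 2.31%, below that with all 3 pairs. Each of the 6 members was lower in every pair, so its negative sign in all 3 fits was given in advance.

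**Figure D1:**
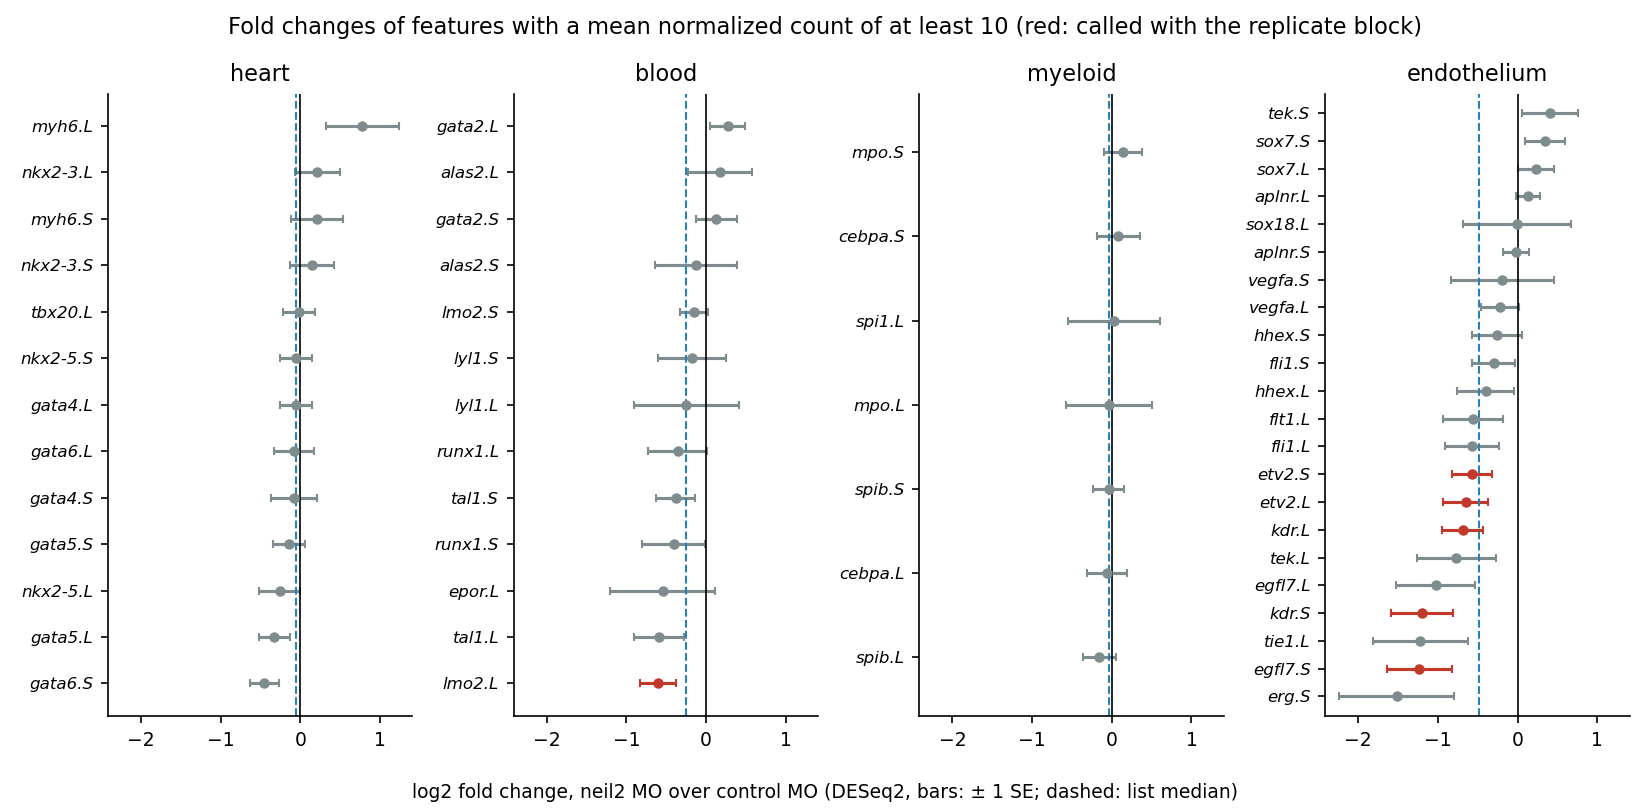
Log2 fold change (neil2 MO over control MO, DESeq2 without the block, ± 1 SE) of the 55 member features with a mean normalized count of 10 or more, by lineage, with the median of each lineage dashed. The 6 features in red, called with the replicate block, lie in the endothelial panel except lmo2.L. Left of 0 lie 18 of 22 endothelial, 10 of 13 blood, 4 of 7 myeloid and 9 of 13 heart features.

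Among the transcription factors, etv2 encodes the ETS factor at the top of the endothelial program. etv2.L was measured at 10.1, 15.8 and 9.61 CPM in neil2 MO embryos, against 22.1, 22.4 and 13.4 CPM in control MO embryos of replicates 1, 2 and 3. Replicate 2 of neil2 MO lay above control MO replicate 3, so the groups overlapped, while every pair was lower in neil2 MO. The log2 fold change was -0.65 ± 0.28 (SE; adjusted p = 0.358, and 0.0247 with the block). etv2.S gave 10.3, 12.7 and 9.07 CPM against 19.7, 17.3 and 12.5 CPM, with the same overlap by that pair of libraries. Its log2 fold change was -0.57 ± 0.25 (adjusted p = 0.358, and 0.0706 with the block).

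The ETS genes fli1 and erg also act in endothelial precursors. fli1.L and fli1.S had log2 fold changes of -0.57 ± 0.34 and -0.30 ± 0.27, neither called. The difference of fli1.L was -1.18 in pair 1, against -0.14 and -0.10 in pairs 2 and 3. erg.S was low, at 0.380, 0.165 and 0.416 CPM in neil2 MO and 1.21, 0.703 and 0.954 CPM in control MO embryos, with no overlap between the groups. Its log2 fold change of -1.52 ± 0.72 was the most negative of the 55 members, at an adjusted p of 0.449, and the blocked DESeq2 fit filtered it out. Of the SoxF genes, sox7.L was the sole member of the 55 with all neil2 MO libraries above all control MO libraries (10.98, 9.52 and 9.24 CPM against 9.005, 8.56 and 8.58 CPM), at a log2 fold change of 0.24 ± 0.23 and an adjusted p of 0.903. sox7.S gave 0.34 ± 0.25 and sox18.L -0.01 ± 0.68, neither called, and sox18.S had too few reads for an adjusted p-value. The homeobox gene hhex, which is also used in endoderm, gave -0.40 ± 0.35 (hhex.L) and -0.25 ± 0.32 (hhex.S).

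Of the VEGF receptors, kdr encodes the main signalling receptor of endothelial precursors. kdr.L had 11.8, 7.21 and 11.1 CPM in neil2 MO embryos and 19.5, 12.3 and 18.7 CPM in control MO embryos. Every neil2 MO library lay below every control MO library, and the pair differences of -0.65, -0.69 and -0.73 (log2) were nearly alike. The log2 fold change was -0.69 ± 0.26 (adjusted p = 0.208, and 0.00912 with the block). kdr.S had 2.99, 1.21 and 2.08 CPM in neil2 MO embryos and 6.73, 3.96 and 4.16 CPM in control MO embryos, again without overlap. Its log2 fold change was -1.20 ± 0.39, at the threshold in DESeq2 (adjusted p = 0.1004) and 0.0121 with the block. For the other VEGF receptors, flt1.L gave -0.56 ± 0.38 and flt1.S, flt4.L and flt4.S had too few reads for an adjusted p-value, with no library above 0.968 CPM. Of these, flt4.L had 5, 4 and 2 raw counts in neil2 MO embryos, against 20, 14 and 3 in control MO embryos, and was lower in every pair at an unadjusted p of 0.0402 in DESeq2. flt4.S had 3, 13 and 3 raw counts against 5, 8 and 2, and was higher in pair 2 alone.

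The secreted factor Egfl7 is made by endothelial cells and their precursors. egfl7.S had 3.21, 1.49 and 2.04 CPM in neil2 MO embryos, against 8.28, 3.39 and 4.68 CPM in control MO embryos. No neil2 MO library reached the control range, and the log2 fold change was -1.23 ± 0.41 (adjusted p = 0.108, and 0.00792 with the block). egfl7.L had 1.47, 0.880 and 0.957 CPM against 3.53, 1.47 and 1.91 CPM, with the groups nearly touching and a log2 fold change of -1.02 ± 0.50 (adjusted p = 0.462). Without control MO replicate 1 the log2 fold change was -0.81 for egfl7.S and -0.58 for egfl7.L. Of the ligands, vegfa.L had 14.5, 12.2 and 20.1 CPM in neil2 MO and 19.5, 15.3 and 21.9 CPM in control MO embryos, which overlapped. Its log2 fold change was -0.22 ± 0.24 (adjusted p = 0.929), and vegfa.S stayed between 0.495 and 0.978 CPM in all libraries.

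**Figure D2:**
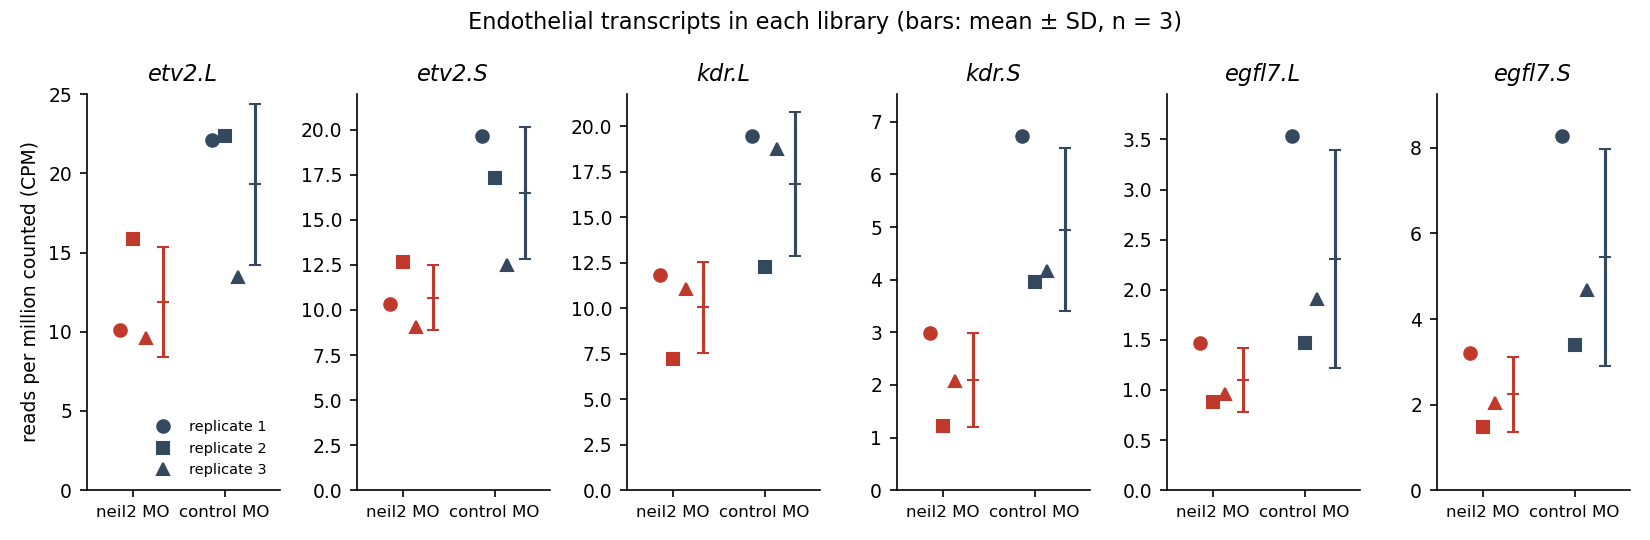
CPM of etv2, kdr and egfl7 homeologs in each of 3 neil2 MO (left, red) and 3 control MO (right, dark) libraries, with symbols for replicate number and bars for the mean ± SD. The groups do not overlap for kdr and egfl7, but those of egfl7.L nearly touch (1.467 CPM in neil2 MO replicate 1, 1.469 CPM in control MO replicate 2). For both etv2 copies neil2 MO replicate 2 lies above control MO replicate 3.

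The angiopoietin receptor family gave no common direction. tie1.L had 1.14, 0.660 and 0.333 CPM in neil2 MO and 2.03, 1.98 and 1.04 CPM in control MO embryos, with a log2 fold change of -1.22 ± 0.59 (adjusted p = 0.466). tie1.S had 4, 0 and 4 raw counts in neil2 MO embryos, against 8, 1 and 2 in control MO embryos. These were too few for an adjusted p-value, and tie1.S was lower in every pair, though by only -0.03 (log2) in pair 3. tek.L, a copy of the gene for the Tie2 receptor, was at 1.25, 0.715 and 1.08 CPM against 2.28, 1.28 and 1.82 CPM and did not overlap between groups. tek.S was at 9.95, 7.59 and 5.08 CPM against 7.99, 6.20 and 3.38 CPM, higher in neil2 MO in each pair. Neither copy was called (-0.77 ± 0.50 and 0.41 ± 0.35 on the log2 scale).

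The apelin receptor gene aplnr, active in early mesoderm and in endothelial precursors, stayed close to its control level. aplnr.L had 84.6, 78.5 and 82.5 CPM in neil2 MO and 78.1, 74.9 and 80.4 CPM in control MO embryos, and aplnr.S had 62.7, 71.6 and 64.6 CPM against 71.4, 72.0 and 66.5 CPM. The log2 fold changes were 0.13 ± 0.15 and -0.02 ± 0.16, smaller than or near their errors. The genes of endothelial junctions were scarcely detected. cdh5.L and cdh5.S, for VE-cadherin, had at most 3 counts in any library, and pecam1.L and pecam1.S no more than 0.639 CPM, so that a difference was not detectable at this depth.

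**Figure D3:**
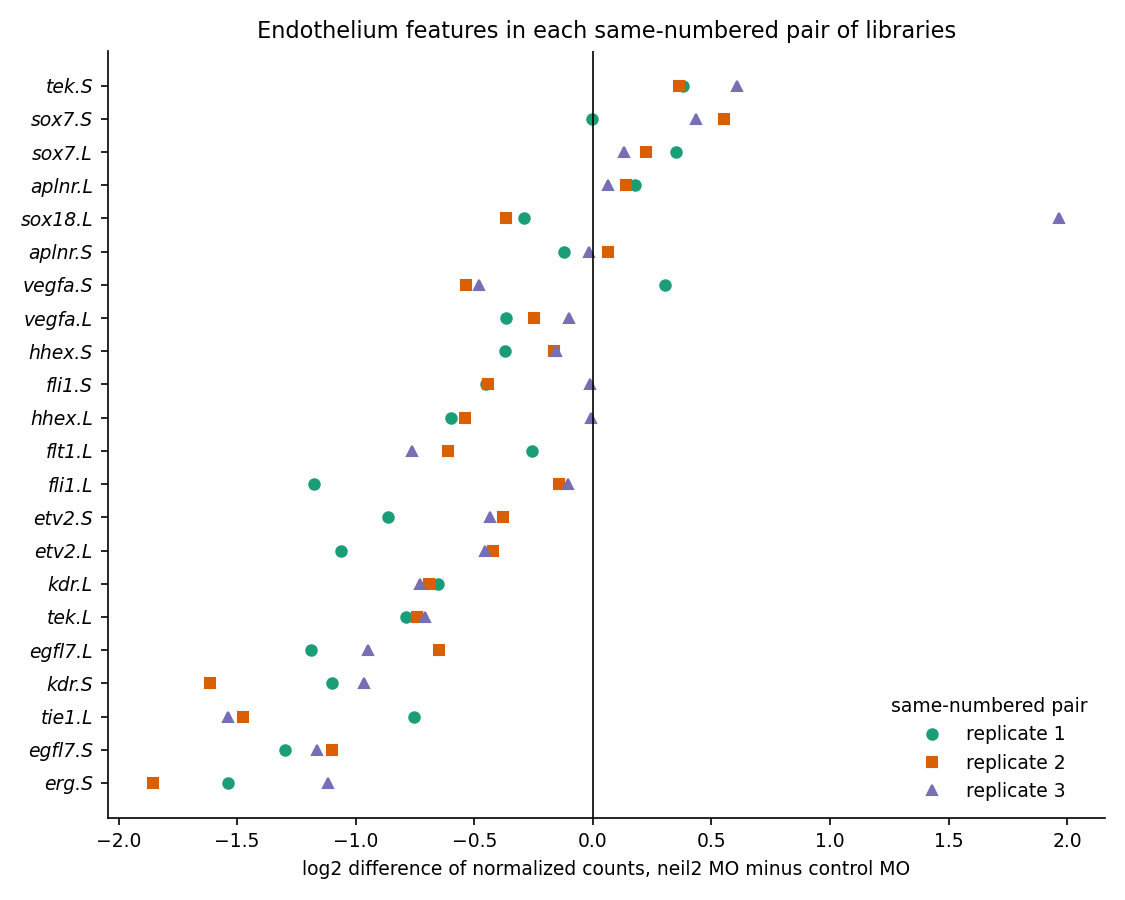
Log2 difference of normalized counts (neil2 MO minus control MO) in each same-numbered pair of libraries for the 22 endothelial features with a mean normalized count of 10 or more. All 3 symbols lie left of 0 for 15 features, against 5048 of 23651 over all features of that level. They lie right of 0 for 3 features, against 5569 over all features. kdr.L and tek.L show nearly equal differences in the 3 pairs.

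Among the blood genes, lmo2 encodes the LIM-domain partner of Tal1. lmo2.L had 10.2, 9.30 and 8.40 CPM in neil2 MO embryos and 16.3, 12.0 and 15.6 CPM in control MO embryos, without overlap. The log2 fold change was -0.60 ± 0.23 (adjusted p = 0.212, and 0.0686 with the block). Its homeolog lmo2.S had 47.0, 52.9 and 43.0 CPM against 58.0, 55.9 and 51.5 CPM and a log2 fold change of -0.16 ± 0.18 (adjusted p = 0.937). Both copies of tal1 were lower in each pair. tal1.L had 7.61, 4.62 and 6.74 CPM against 13.1, 5.94 and 10.7 CPM, and tal1.S had 24.02, 16.6 and 23.3 CPM against 32.4, 19.2 and 35.0 CPM, with overlap between the groups in both. Their log2 fold changes of -0.59 ± 0.32 and -0.38 ± 0.25 were not called by DESeq2 with or without the block, and that of tal1.L was -0.35 without control MO replicate 1.

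The zinc finger gene gata2 is used in blood progenitors and, in Xenopus, also in the ventral ectoderm. gata2.L had 107, 151 and 96.8 CPM in neil2 MO and 90.8, 118 and 96.6 CPM in control MO embryos, and gata2.S had 59.6, 82.5 and 57.9 CPM against 44.9, 84.8 and 60.3 CPM. Both overlapped, at log2 fold changes of 0.27 ± 0.22 and 0.13 ± 0.26. gata2.L was higher in each pair, by 0.30, 0.43 and 0.03 (log2). Neither copy was called by DESeq2 with or without the block. For runx1, which marks definitive progenitors and in Xenopus also primitive blood and sensory neurons, runx1.S had 3.32, 2.70 and 4.87 CPM against 4.65, 2.75 and 7.72 CPM and runx1.L 2.61, 4.02 and 5.16 CPM against 3.97, 4.34 and 7.54 CPM. Neither change was called (-0.41 ± 0.39 and -0.36 ± 0.37).

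The member genes of the maturing red cell had few reads. The erythroid factor gene gata1 stayed at or below 0.511 CPM, the erythropoietin receptor feature epor.L at or below 1.21 CPM, and nfe2 at or below 0.707 CPM. nfe2.L had 9, 10 and 17 raw counts in neil2 MO embryos, against 5, 5 and 3 in control MO embryos. It was higher in every pair and did not overlap between the groups in CPM, at an unadjusted p of 0.168 in DESeq2 and without an adjusted p-value. alas2, for the first enzyme of heme synthesis in red cells, reached 1.597 to 3.53 CPM (alas2.L), with overlapping groups. The globin feature hba1.L had 5, 0 and 4 raw counts in neil2 MO embryos, against 28, 1 and 5 in control MO embryos, and hbg1.L had 5, 0 and 6 against 25, 3 and 4. In both the high value belonged to control MO replicate 1 alone, and none of the 6 globin features had enough reads for an adjusted p-value. The remaining bHLH gene, lyl1, gave -0.25 ± 0.66 (lyl1.L) and -0.18 ± 0.43 (lyl1.S).

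The 7 myeloid members with enough reads overlapped between the groups. Of 17 further myeloid features at that level, 15 were negative, at a median log2 fold change of -0.23. Myeloperoxidase, encoded by mpo, marks the first myeloid cells of the Xenopus embryo. mpo.L had 73.3, 29.2 and 71.1 CPM in neil2 MO and 95.04, 35.6 and 53.3 CPM in control MO embryos. mpo.S had 217, 147 and 273 CPM against 249, 150.1 and 199 CPM. Replicate 2 was the lowest of each group for both copies, and the log2 fold changes were -0.03 ± 0.54 and 0.14 ± 0.24. The ETS factor gene spib, an early regulator of these cells, had 30.0, 29.5 and 37.6 CPM against 35.3, 30.8 and 46.3 CPM (spib.L) and 27.4, 22.0 and 30.3 CPM against 28.0, 25.0 and 32.0 CPM (spib.S). cebpa, for the C/EBPα factor, which is also used in other tissues, had 29.8, 32.2 and 46.7 CPM against 36.2, 29.3 and 52.8 CPM (cebpa.L) and 15.4, 18.4 and 26.5 CPM against 16.7, 16.0 and 26.8 CPM (cebpa.S). The log2 fold changes of spib and cebpa lay between -0.15 and 0.08, and that of the ETS gene spi1.L was 0.03 ± 0.58.

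Of the heart genes, the factor genes nkx2-5, tbx20 and nkx2-3 had log2 fold changes between -0.26 and 0.21. nkx2-5 encodes the homeobox factor that marks the heart field. nkx2-5.L had 8.15, 6.33 and 9.40 CPM in neil2 MO and 10.4, 7.86 and 11.53 CPM in control MO embryos, and nkx2-5.S had 17.6, 14.9 and 18.2 CPM against 17.9, 16.0 and 20.6 CPM. The nkx2-5.L difference was -0.28, -0.24 and -0.27 (log2) in the pairs, but neither copy was called (-0.26 ± 0.26 and -0.05 ± 0.20). tbx20.L, a T-box factor gene of the heart field that is also active in hindbrain motor neurons, had 42.1, 31.5 and 45.7 CPM against 38.0, 38.3 and 48.5 CPM and a log2 fold change of -0.01 ± 0.20. The homeobox gene nkx2-3, related to nkx2-5 and used in heart and pharynx, gave 0.21 ± 0.28 and 0.15 ± 0.28.

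The GATA factors of heart and endoderm included the heart feature with the lowest p-value. gata6.S had 58.4, 73.0 and 76.3 CPM in neil2 MO embryos and 89.1, 102 and 103 CPM in control MO embryos, without overlap. Its log2 fold change was -0.45 ± 0.18 (adjusted p = 0.272). With the block the adjusted p was 0.00526, and the size of the change stayed under the effect threshold, so that it was not called. gata6.L had 26.6, 40.9 and 29.6 CPM against 32.3, 45.0 and 29.4 CPM, which overlapped. gata5.L had 13.8, 15.1 and 13.1 CPM against 19.2, 17.0 and 18.5 CPM, without overlap, and gata5.S 25.0, 20.6 and 29.0 CPM against 32.2, 23.8 and 29.5 CPM, with overlap. Their log2 fold changes were -0.32 ± 0.20 and -0.14 ± 0.20, and those of gata4.L and gata4.S were -0.05 ± 0.20 and -0.08 ± 0.29.

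Among genes of the contracting heart muscle, nppa.L, for a natriuretic peptide, had 0 counts in all 6 libraries, nppa.S had counts in 1 library alone, and tnni3 and tnnt2, for cardiac troponins, did not exceed 0.520 CPM. The cardiac myosin gene myh6 was at 1.15 to 3.37 CPM (myh6.L) and 3.39 to 6.41 CPM (myh6.S), and both copies overlapped between the groups. myh6.L had the most positive log2 fold change of the 55 members, 0.78 ± 0.45 (adjusted p = 0.644), and myh6.S gave 0.21 ± 0.32.

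Over all 55 members with enough reads, 9 had every neil2 MO library below every control MO library and 1 had every one above. Among all features of that level the shares were 10.3% below and 6.12% above, and no test of the list against these shares was made. Of the 22 endothelial features, 6 lay below and 1 above. Lists described further below gave 14 of 46 endothelial features below and 1 above. They gave 12 of 42 heart features below and 1 above, and 2 of 36 blood features below and 2 above. Of the markers of other tissues, 4 of 12 pronephros and 4 of 15 somite muscle features lay below and 0 above.

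The homeologs of 24 member genes could be compared through the ratio of .L to .S. limma called 0 of these pairs at an adjusted p-value below 0.1, where 0.426% of 7285 pairs were called, and 2 member pairs (tek and myh6) had an unadjusted p-value below 0.05. For tek the log2 ratio of .L to .S was -1.20 ± 0.43 (SE) in neil2 MO minus control MO embryos, at an adjusted p of 0.417. With the replicate block this was the 1 member pair called (adjusted p = 0.0516), against 2.81% of all pairs. Both copies had the same sign of log2 fold change in 19 of 24 genes, and among 9 endothelial genes both copies were negative in 6. The ratio of kdr differed by 0.54 ± 0.24 (adjusted p = 0.527), and that of lmo2 by -0.43 ± 0.19 (adjusted p = 0.506), so a difference between the copies of kdr or lmo2 was not shown.

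Replicate number was a further source of variation. A likelihood ratio test of replicate number, with the MO in both models, called 13 of 55 members, against 16.7% of all features; edgeR called 27 members, against 31.4% of all features. The 13 were cebpa.L, cebpa.S, mpo.L and mpo.S among myeloid features, gata2.L, gata2.S, runx1.S, tal1.L and tal1.S among blood features, etv2.L, egfl7.S and tek.S among endothelial features, and gata6.L of the heart features. mpo.L had an adjusted p of 4.10e-08 in the likelihood ratio test. tal1.S and both mpo copies were lowest in replicate 2 of each group, whereas gata2.L and gata6.L were highest there, and cebpa.L was highest in replicate 3.

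**Figure D4:**
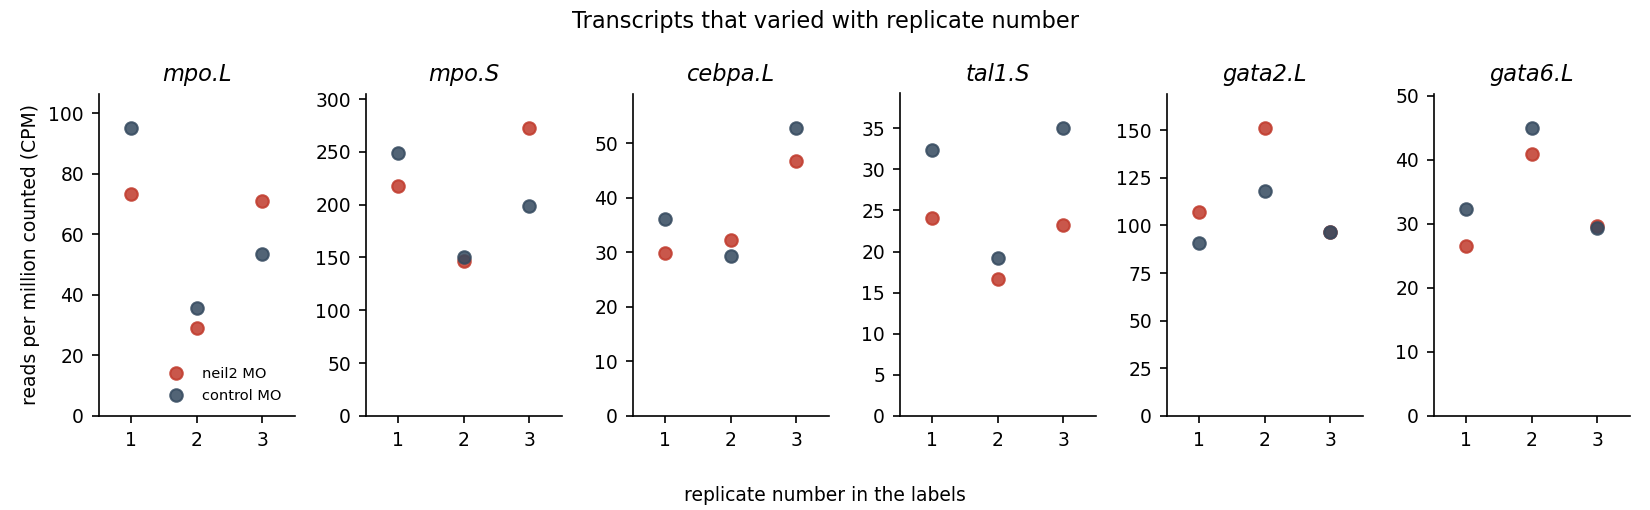
CPM of 6 member features in neil2 MO (red) and control MO (dark) libraries against the replicate number. For mpo.L, mpo.S and tal1.S replicate 2 is the lowest point of each group, and for gata2.L and gata6.L the highest.

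Further endothelial, blood and heart genes were read from lists kept apart from the members. DESeq2 called 1 of 49 tested endothelial features lowered and 1 raised, near the shares over all features (1.09% and 1.15%). The median log2 fold change of the 46 with a mean normalized count of 10 or more was -0.38, with 37 negative. The lowered feature was prox1.S, for a homeobox factor of lymphatic endothelium that is also used in the nervous system and liver, at 2.93, 1.32 and 2.37 CPM in neil2 MO and 5.62, 5.62 and 4.85 CPM in control MO embryos (-1.23 ± 0.35, adjusted p = 0.0314). The raised feature was robo4.L, for a Roundabout receptor of endothelium, at 14.5, 10.6 and 10.03 CPM against 7.02, 6.77 and 4.33 CPM (0.99 ± 0.28, adjusted p = 0.0248). Both sets of libraries were without overlap. In the blocked fit 1 of 38 tested features of this endothelial list was lowered and 1 raised, against 2.76% and 3.17% of all features.

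Of 36 further blood features, 1 was raised and 0 lowered, against 1.15% and 1.09% of all features, and the median log2 fold change was 0.02. The raised feature, slc4a1.S, encodes the band 3 anion exchanger of red cells, a gene that is also used in kidney, and had 45.4, 44.1 and 30.3 CPM against 22.8, 28.4 and 19.1 CPM (0.82 ± 0.24, adjusted p = 0.0336).

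Of 44 further heart features, 1 was lowered and 0 raised, against 1.09% and 1.15% of all features, and 31 of the 42 with a mean normalized count of 10 or more were negative, at a median of -0.19. The lowered feature was tnni1.S, for a troponin I that skeletal muscle also uses, at 2.39, 3.52 and 2.496 CPM against 5.37, 5.05 and 7.02 CPM (-0.99 ± 0.32, adjusted p = 0.0999). edgeR without the block called none of prox1.S, robo4.L, slc4a1.S and tnni1.S, with adjusted p-values of 0.192, 0.200, 0.219 and 0.232. With the replicate block, 0 of 38 heart and 1 of 33 blood features tested were raised, where 3.17% of all features were called raised. In the same fit, where 2.76% of all features were called lowered, 4 of the 38 heart and 1 of the 33 blood features were lowered. Beside tnni1.S these were hand2.L, a bHLH factor gene of the heart field (-1.02, adjusted p = 0.0697), mef2c.L, a MADS-box factor gene of muscle (-0.70, adjusted p = 0.0275), myl4.S, for a myosin light chain (-0.81, adjusted p = 9.84e-04) and, of the blood features, zfpm1.L, for a Gata1 cofactor (-0.66, adjusted p = 0.0428).

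Markers of other tissues were read beside these lists. All 12 pronephros features were negative (median log2 fold change -0.27), as were all 10 neural features (-0.14), 11 of 15 somite muscle features (-0.16) and 12 of 16 endoderm features (-0.16), while 2 of 10 epidermis features were negative (0.16). Summed levels were 166 to 223 CPM in neil2 MO against 210.1 to 263 CPM in control MO for pronephros, and 582 to 645 against 714 to 742 CPM for neural markers. They were 2507 to 2766 against 3003 to 3565 CPM for somite muscle, 2357 to 3181 against 2518 to 3891 CPM for endoderm, and 8109.9 to 9549 against 9492 to 9721 CPM for epidermis. The endothelial members summed to 257 to 266 CPM in neil2 MO, against 282 to 331 CPM in control MO embryos. The largest parts of this sum were aplnr.L (mean 81.8 against 77.8 CPM) and aplnr.S (66.3 against 70.0 CPM). No feature of the 5 marker lists was at 3 counts or fewer in every library, none was called by DESeq2 with or without the block, and the part of these tissues in the endothelial values was not tested.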

How the data were processed

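Polyadenylated RNA gave TruSeq libraries, which per the labels were amplified in 12 PCR cycles and read over 51 cycles. The deposited values are raw counts of reads per gene feature, which the authors obtained with STAR 2.5.4b on the X. laevis v9.2 assembly and featureCounts 1.5.1. Reads of near-identical homeologs or paralogs may have been left uncounted or split, which leaves their values uncertain. No coordinates are given.

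CPM is the deposited count scaled to a library total of 1000000; normalized counts were divided by DESeq2 size factors. DESeq2 1.42.0 (R 4.3.3, Wald test, independent filtering) was fitted on all features, as the study's methods name it, and calls needed a Benjamini-Hochberg adjusted p-value below 0.1 with a log2 fold change beyond 0.5 in either direction. Alternatives were edgeR 4.0.16 (quasi-likelihood, TMM), a replicate block, summed homeologs, each library left out, a mean count minimum of 10, DESeq2 without independent filtering and TMM size factors. Leaving out both replicate 3 libraries, or a same-numbered pair in the blocked fit, was added after seeing the data. Homeolog ratios were tested with limma 3.58.1 on log2 ratios (pseudocount 0.5) where each homeolog had a mean count of 10 or more. The tests were first run on simulated data. No libraries were duplicates. The floor of 3 counts covers counting error only, since PCR copies carried no molecular identifiers, and p-values measure the spread between these pools.

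Groups and replicate numbers came from the titles. Deviations from the group means correlated between same-numbered libraries (0.587, 0.569 and 0.634 for replicates 1, 2 and 3), and the numbers were taken to pair the libraries. The deviations within a group sum to 0, so a shift shared by the replicate 3 libraries can by itself give positive values for replicates 1 and 2. These values therefore cannot decide whether replicates 1 and 2 are paired as numbered, and the blocked fits rest on the numbers in the titles. The median feature shifted by -0.04 (log2 CPM).

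The members and lists were chosen with earlier results of these data known. CPM per library were given for members called with or without the block and, in each lineage, for the 3 features of highest mean CPM and the 3 of largest change with a mean normalized count of at least 50, with their homeologs. Values of erg.S, sox7.L, tie1.L, tie1.S, tek, flt4.L, flt4.S, nfe2.L, myh6 and the globins were added after they were seen. Further lineage genes were named where called, and calls among the further myeloid genes are not reported here.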

Additional observations from a re-analysis of the deposited data

How the results depend on the processing

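The number of members called lowered, 0 in DESeq2, was 1 with TMM size factors (kdr.S; 275 of all features), 6 with the replicate block, 10 with edgeR and the replicate block, and 2 with homeologs summed (egfl7 and kdr; 205 of all features). It ranged from 0 to 2 when each library was left out (118 to 275 of all features), and was 2 with the replicate block and pair 3 left out (425). No alternative called a member raised. Over all features DESeq2 called 276 raised and 261 lowered, the blocked fit 694 and 604, and edgeR with the block 980 and 1255. Members varying with replicate number were 27 by edgeR (7488 of all features), and homeolog pairs called were 1 with the replicate block (205 of all pairs). With a library left out, the median log2 fold change ranged from -0.11 to 0.010 for heart, from -0.35 to -0.14 for blood, from -0.23 to 0.12 for myeloid and from -0.54 to -0.20 for endothelium. In the blocked fit it was -0.34 for endothelium and 0.068 for myeloid without pair 1, and -0.0029 for heart without pair 3. Features without a call changed sign. With a library left out these ranged from -0.084 to 0.42 (gata2.S), -0.69 to 0.023 (runx1.S), -0.11 to 0.027 (aplnr.S), -0.31 to 0.15 (gata6.L), -0.12 to 0.043 (nkx2-5.S), -0.11 to 0.11 (tbx20.L), -0.27 to 0.20 (cebpa.L), -0.15 to 0.35 (cebpa.S), -0.30 to 0.41 (mpo.L), -0.064 to 0.33 (mpo.S), -0.26 to 0.020 (spib.L) and -0.13 to 0.059 (spib.S). Without both replicate 3 libraries tbx20.L was 0.0058 and mpo.S -0.067. With the replicate block, aplnr.S was 0.028, cebpa.L 0.031 and mpo.L 0.12 without pair 1, tbx20.L was 0.077, cebpa.S -0.018 and mpo.L 0.063 without pair 2, and mpo.S was -0.052 without pair 3. The cause of these changes was not tested. Features under a mean normalized count of 10, 26 of 81 members, had no adjusted p-value in DESeq2, which limits what can be said of them.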
